A study of Nematostella vectensis with 96 samples.

Results

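The 100 genes described here were, among genes with a mean count of 20 to 200, the ones whose level varied least over the libraries of the series. Genes above or below that range were not ranked, and some of them may vary as little. They were selected on measured values. Libraries with a total of at least 100000 counts were used, genes with a mean count of 20 to 200 were kept, and the genes were ranked by the SD of log2(CPM + 5), where CPM are counts scaled to a library total of 1000000. Groups were not subtracted before the SD was taken, and 3 genes were left out by the rule. The count range held 2002 of the 23927 gene models of the table, and the 100 genes of smallest SD are called the members. The other 1902 genes of the range, the 3 left out among them, serve for comparison. Because the rule used the spread over all libraries, the members' spread, level and differences between light conditions or times are given as descriptions. Where members were called in a fit of the whole table, the calls rest on the libraries that the rule used, and they are counted beside the share of all genes without further reading.

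The samples were whole adults of *Nematostella vectensis*, a burrowing estuarine sea anemone without eyes, from a laboratory-bred stock that was first collected in Maryland. For 1 month the animals lived under a cycle of 12 h light and 12 h dark, with lamps of a single color (red, green or blue), or in darkness throughout (DD, labelled dark:dark), and all were starved for 2 days before sampling. Feeding and water changes of the DD animals were done with lights off, to keep light out. An effect of this handling on color minus DD differences was not tested. Single animals were taken at 6 time points, ZT2 to ZT22 in steps of 4 h, where ZT counts hours from lights on, with 4 animals (replicates A to D) per light condition and time point. The counts came from tag-based RNA sequencing, which sequences 1 fragment toward the 3′ end per transcript, so that a count does not grow with transcript length. In whole animals, fewer cells of a type and less RNA per cell cannot be told apart.

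Reference genes are transcripts taken to be equally abundant in all samples of an experiment, against which others are measured. Those in common use serve the upkeep of every cell: actin and tubulin build the cytoskeleton, elongation factor 1-alpha brings aminoacyl-tRNA to the ribosome, and cyclophilin helps proteins fold. A gene can be stable in 1 tissue or treatment and not in another, so references are usually ranked within the experiment that will use them. For the daily clock such a ranking matters, since the RNA of many metabolic and structural genes cycles with the day.

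Of the 96 libraries, 93 passed the minimum total: 23 in red light, 24 in green, 24 in blue and 22 in DD. Their totals ran from 104048 to 706046 counts, with a median of 344755. DD ZT6 replicate D, DD ZT22 replicate C and red ZT6 replicate C fell below it. In 4 libraries the members scattered more widely around their own means than in most others: the SD of the members' deviations was 0.54 in DD ZT2 replicate A, 0.52 in red ZT2 replicate B, 0.51 in blue ZT14 replicate B and 0.48 in blue ZT10 replicate D, against a median of 0.26 over all libraries used. Their totals were 138366, 234925, 111676 and 104048 counts in the same order, all below the median total. All but red ZT2 replicate B were the shallowest libraries used, and a link of the scatter with depth was not tested. These 4 libraries held the lowest value of 63 of the 100 members, 26 of them in blue ZT10 replicate D, and the highest value of 11. Without them the median SD of the members was 0.29 and that of the other genes 0.46.

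The SD of log2(CPM + 5) ran from 0.22 to 0.34 over the members, with a median of 0.32. Over the other genes of the range it ran from 0.34 to 3.07, with a median of 0.52. Low spread did not mean a constant value: the ratio of the highest to the lowest library was between 2.48 and 7.18 for the members, with a median of 3.52, and the coefficient of variation of CPM was between 14.6% and 24.7%. Counting alone, with a Poisson variance at each gene's mean CPM in each library, gives a median SD of 0.19 for the members. The members' SD was 0.98 to 2.98 times that value, with a median of 1.64, and counting took a median of 37.3% of their variance, against 21.1% for the other genes. For 1 member, NVE8355 (mean count 27.2), the SD of 0.275 was below the 0.2801 that counting gives. No member had a library without a count, but 46 members fell under 10 counts in at least 1 library.

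**Figure D1:**
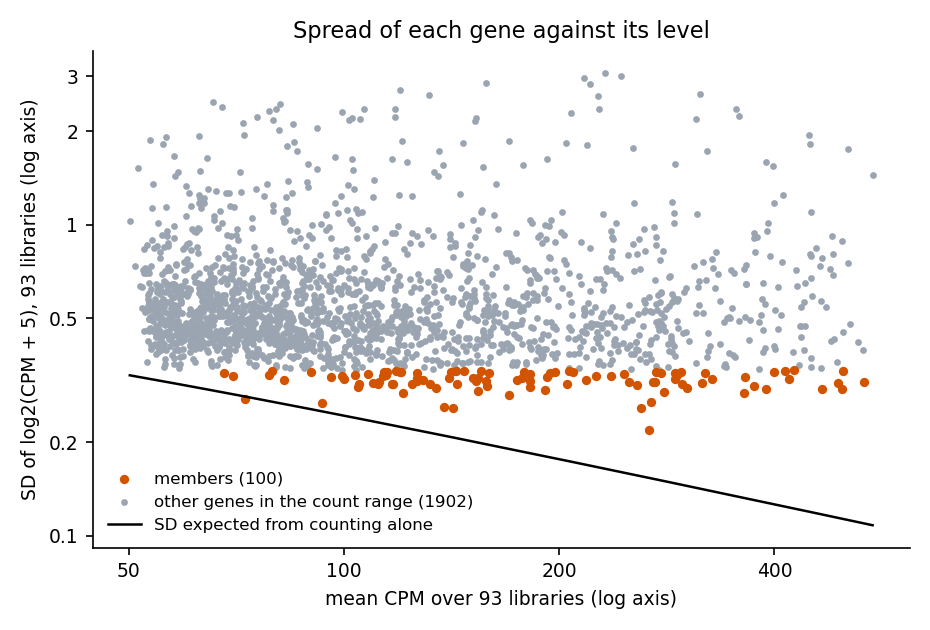
SD of log2(CPM + 5) over 93 libraries (vertical, log axis) against mean CPM (horizontal, log axis) for the 100 members (orange) and the 1902 other genes with a mean count of 20 to 200 (grey), with the SD expected from Poisson counting alone (line). The members form the lower edge of the cloud, between 0.22 and 0.34, and come nearest to the counting line at low CPM, where NVE8355 lies just below it.

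Members were unevenly spread over the count range. Of the 1131 genes with a mean count of 20 to 40, 14 were members (1.24%), and of the 207 genes at 100 to 200 counts, 28 were members (13.5%). Between these, 35 of 369 genes at 40 to 60 counts and 23 of 295 at 60 to 100 counts were members. The members' mean CPM ran from 67.9 to 534.3, with a median of 164.9, and the median of the other genes was 91.95. The highest means were those of NVE13456 (534.3 CPM), NVE22695 (498.8 CPM) and NVE17337 (496.6 CPM). The lowest were those of NVE6408 (67.9 CPM), NVE4737 (70.05 CPM) and NVE8355 (72.8 CPM). These are levels per transcript tag, and genes were not compared with each other beyond this order.

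The smallest SD, 0.218, belonged to NVE5273, annotated as a homolog of staufen, a double-stranded RNA-binding protein that localizes messenger RNAs in flies. It was at 267 CPM on average, with a lowest library of 143.3 CPM (blue ZT14 replicate B), a median of 271.9 CPM and a highest of 377.7 CPM (red ZT22 replicate C). NVE5273 stood apart from the rest, since the next gene, NVE21618, had an SD of 0.257 at 260.3 CPM. NVE9334 (SD 0.257, 141.9 CPM) and NVE13984 (SD 0.260, 138.3 CPM) followed, both without an annotation in the study's gene table. NVE9901, an HMG domain protein of the kind that binds and bends DNA, had an SD of 0.267 at 93.3 CPM. NVE8355, NVE2262, NVE5782, NVE20867 and NVE24814 were also among the 12 genes of smallest SD, with SDs from 0.275 to 0.290. The last of the 12 was NVE19053, annotated as islet cell autoantigen, a protein of secretory vesicles in mammals, with an SD of 0.293 at 154.0 CPM.

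At the threshold the ranking was almost continuous. The last 3 members were NVE4961, annotated as DNA-directed RNA polymerase II (SD 0.3391), NVE22528 (SD 0.3396) and NVE3816 (SD 0.3401). The first genes outside were NVE2435, a CREB-like transcription factor (SD 0.3414), and NVE18252 (SD 0.3419).

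The study's gene table gave an annotation for 41 of the members, 34 of them with a name other than uncharacterized protein. That table lists genes the study called in these samples, so it names no unbiased set. Several named members work in RNA metabolism and translation besides staufen: NVE1135 (translation initiation factor 5B, which joins the ribosomal subunits) was at 197.2 CPM with an SD of 0.335, and NVE12211 (initiation factor 4 gamma 3, the scaffold of the cap-binding complex) was at 155.6 CPM with an SD of 0.339. Several belong to vesicle traffic, among them NVE12356 (golgin A4, a tether of the Golgi) at 301.9 CPM with an SD of 0.298 and NVE23847 (ADP-ribosylation factor 6, a GTPase of the plasma membrane) at 143.9 CPM with an SD of 0.308. In the cytoskeleton and cell polarity stood NVE366 (lethal giant larvae homolog), NVE24213 (kinesin), NVE24914 (gelsolin, which severs actin filaments) and NVE10278 (myosin), with SDs of 0.306, 0.306, 0.326 and 0.334. Signalling members were NVE23271 (cAMP-dependent protein kinase, SD 0.298), NVE8230 (a G protein alpha subunit, SD 0.307) and NVE23052 (a 14-3-3 protein by its annotation as a monooxygenase activation protein, SD 0.304). Enzymes of metabolism among the named members were NVE17883 (ATP synthase subunit b, SD 0.315), NVE20003 (alanine aminotransferase, SD 0.320) and NVE38 (pyruvate kinase, SD 0.331).

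Families from which reference genes are usually taken were counted with keyword lists on the same annotations, beside 100 members of the 2002 genes in the whole range. Since the table holds genes the study called, they are no independent evidence of stability or its lack. Of 37 genes annotated as ribosomal proteins, 31 lay above the count range and 1 in it, so the range itself kept nearly all of them out. Of the 16 actin and tubulin genes in the range 0 were members, and their median SD was 0.58, against 0.51 for all genes of the range. The 5 cyclophilins were all in the range, 0 were members, and their median SD was 0.57. Of 11 ubiquitin and proteasome genes in the range 0 were members (median SD 0.50). Among the translation factors 2 of 13 in the range were members, NVE1135 and NVE12211, with a median SD of 0.47 over the 13. Respiration had 1 member, NVE17883, of 29 in the range (median SD 0.48), and RNA polymerase and splicing had 1, NVE4961, of 8 (median SD 0.42).

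The members' means differed between light conditions. Spread between animals alone gives some range of means, and its size was not computed here or for the time points. On library totals, the difference between the highest and the lowest of the 4 light means had a median of 0.21 (log2) over the members and ran from 0.03 for NVE5909 to 0.47 for NVE17337. Its median over the other genes was 0.37. NVE17337, annotated as a surface protein, had a lowest, median and highest library of 368.7, 571.9 and 734.0 CPM in red light, 310.4, 515.7 and 688.3 CPM in green, 307.8, 485.3 and 670.0 CPM in blue, and 296.3, 409.3 and 584.1 CPM in DD. The conditions overlapped, but the median of each color lay above that of DD. NVE12339, annotated as the kinase MRCK alpha, which acts on myosin downstream of Cdc42 in mammals, averaged 211.2 ± 21.9 CPM in red light (SD, n = 23), 188.5 ± 29.7 CPM in green (n = 24), 174.8 ± 38.0 CPM in blue (n = 24) and 153.5 ± 33.6 CPM in DD (n = 22). NVE4702, an open reading frame homolog without a known role in the table, averaged 332.4 ± 68.2 CPM in red light, 301.9 ± 50.9 CPM in green, 284.4 ± 54.6 CPM in blue and 242.7 ± 46.96 CPM in DD (SD, same n). NVE9607, annotated as ninein-like, a centrosome protein, was near 110 CPM in each color (111.3 ± 18.9, 109.2 ± 21.0 and 109.7 ± 24.4 CPM in red, green and blue light) and at 82.6 ± 17.1 CPM in DD. These 4 genes had the widest range of light means. Their red minus DD difference was 0.47, 0.47, 0.44 and 0.42 on library totals and kept its sign under every scaling tried, with 0.40, 0.40, 0.37 and 0.35 under TMM, the trimmed mean of M values, which sets library factors from the bulk of the genes.

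**Figure D2:**
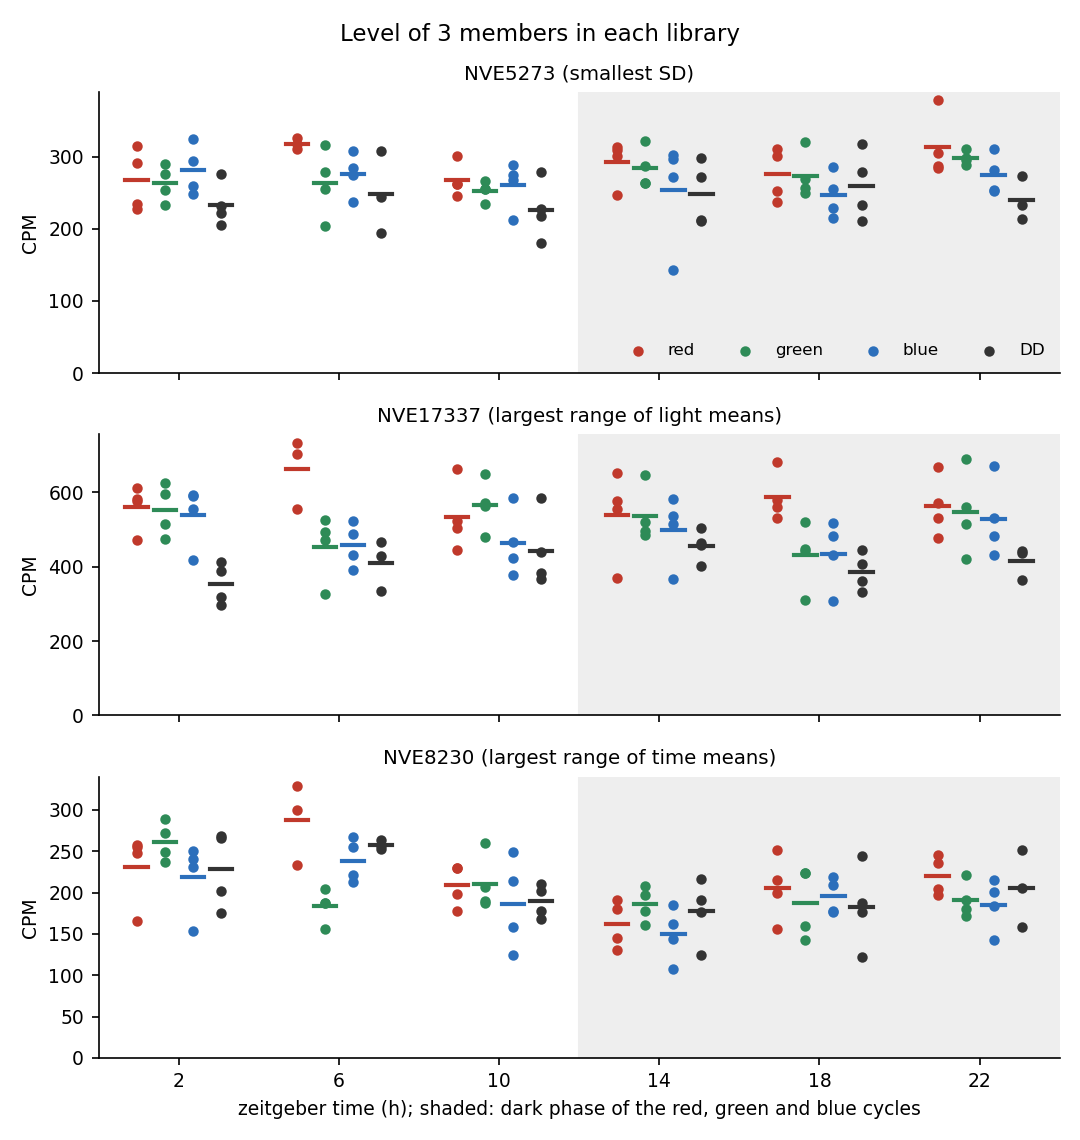
CPM (library totals) of 3 members in each of 93 libraries against zeitgeber time, with red, green and blue light and DD side by side, a point per animal a bar for the mean of each group, and the dark phase of the color cycles shaded. NVE5273, of smallest SD, stayed between 143.3 and 377.7 CPM, NVE17337 had its lowest median in DD, and NVE8230 was lowest around ZT14.

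The common part of the light differences depended on how libraries were scaled. On library totals, red light had the highest mean for 51 of 100 members and blue light the lowest for 40, and the median red minus DD difference over the members was 0.08. Under TMM, red light was highest for 33 and DD for 33, blue was lowest for 27, and the median red minus DD difference was 0.01. With RLE, the median-ratio factors of DESeq2, red was highest for 33, blue for 31, and blue was lowest for 14. The median blue minus DD difference was -0.02 on library totals, -0.02 under TMM and 0.03 under RLE. Over the members, 49 were higher in red light than in DD under all 4 scalings (totals, TMM, RLE and the members themselves), 31 were lower under all, and 20 changed sign. For green minus DD the counts were 47, 36 and 17, and for blue minus DD 45, 40 and 15. The 4 scalings use the same counts and move all members by a similar amount. A sign kept under all 4 is therefore no further evidence of a direction. The median over members did not leave 0 by more than 0.03 under TMM or RLE. The 3 differences share the DD libraries.

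**Figure D3:**
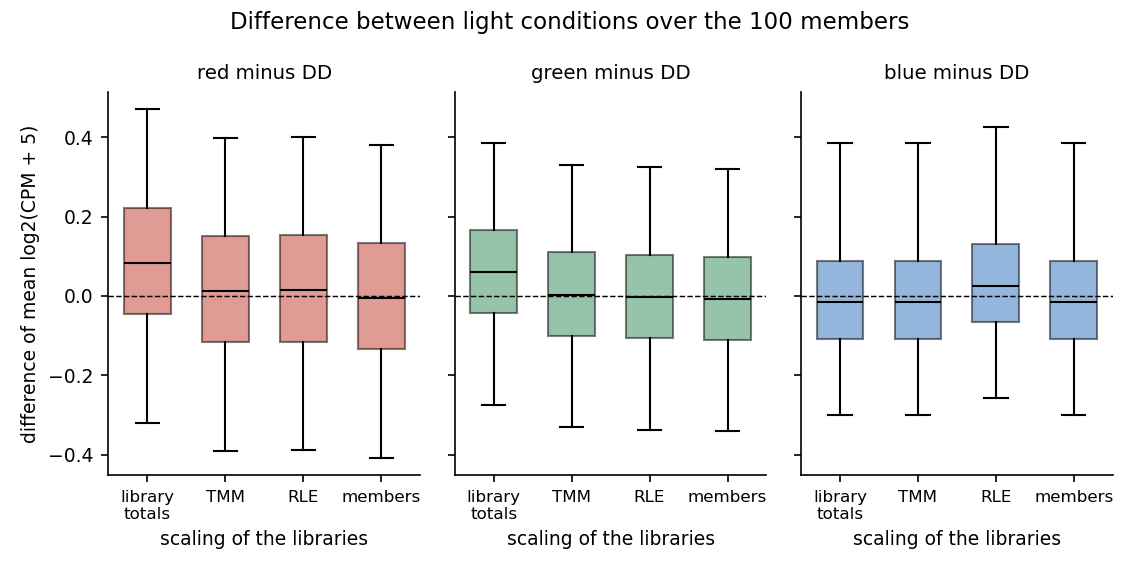
Difference of mean log2(CPM + 5) between each light color and DD for the 100 members under 4 scalings of the libraries. Boxes span the quartiles with the median as a line and whiskers reach the lowest and highest member. The median red minus DD difference is 0.08 on library totals and 0.01 under TMM, while the extremes for red light are -0.32 and 0.47 on library totals and -0.39 and 0.40 under TMM.

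Some members were called in the count fit. With edgeR's quasi-likelihood F test over 24 groups, 12.4% of the 9597 genes tested were called for any difference between light conditions at a 10% false discovery rate (FDR), and 24 of the 100 members were called. For red minus DD, 12.8% of all genes and 26 members were called, 16 of them higher in red. For green minus DD these were 5.28% and 13 members (9 higher), and for blue minus DD 7.5% and 9 members (6 higher). Over all genes called, 639 of 1232 were higher in red, 287 of 507 in green and 298 of 720 in blue. Since the rule limited the members' spread, nothing is read from these shares. The genes tested reach down to a mean count of 3, while the lowest mean count of a member was 25.3. At a minimum mean count of 10, 25.4% of 4332 genes and 30 members were called for light. For red minus DD these were 24.4% and 32 members, for green minus DD 13.5% and 17, and for blue minus DD 15.7% and 17. On library totals the split for red minus DD was 25 higher of 28 members called, beside 945 of 1279 genes (13.3% of all genes called). Under RLE that for blue minus DD was 12 higher of 13 members, beside 389 of 732 genes (7.63% called). Without the 4 libraries of widest spread, 20 members were called for light (12.1% of all genes), 27 for red minus DD (13.0%), 15 for green minus DD (6.55%) and 9 for blue minus DD (7.76%). With all libraries of 1 replicate letter left out, 6 to 14 members were called for light (5.95 to 9.45% of all genes), 10 to 19 for red minus DD (5.03 to 8.84%), 1 to 12 for green minus DD (1.26 to 8.01%) and 2 to 4 for blue minus DD (3.08 to 5.33%). The called members with annotation included NVE17337, which was 0.41 higher in red light than in DD (standard error 0.08), and NVE23052, the 14-3-3 protein, which was lower in red light (log2 fold change -0.27, standard error 0.08). NVE12211 was 0.35 higher in red light (standard error 0.09) and NVE4961, RNA polymerase II, 0.29 higher (standard error 0.10). NVE11271, a universal stress protein, was lower in red light (log2 fold change -0.31, standard error 0.09). NVE5273, the gene of smallest SD, was called for red minus DD, at 0.17 (standard error 0.06), but not for any difference between light conditions. Its lowest, median and highest libraries were 228.0, 300.6 and 377.7 CPM in red light and 180.4, 231.7 and 316.9 CPM in DD, so that the conditions overlapped.

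Across the day the range of the 6 time means had a median of 0.27 over the members, from 0.10 to 0.48, and of 0.44 over the other genes. NVE8230, the G protein alpha subunit that passes signals from receptors to enzymes, had the widest. It averaged 235.1 ± 39.9 CPM at ZT2 (SD, n = 16), 237.4 ± 46.7 at ZT6 (n = 14), 198.9 ± 34.4 at ZT10, 168.5 ± 31.2 at ZT14, 192.9 ± 36.8 at ZT18 (n = 16 each) and 200.2 ± 30.9 CPM at ZT22 (n = 15). The ranges of single animals overlapped between all time points, with 155.5 to 329.1 CPM at ZT6 and 107.5 to 216.5 CPM at ZT14. NVE17883, ATP synthase subunit b of the mitochondrial inner membrane, peaked at ZT6 with 225.8 ± 34.7 CPM and was at 163.3 ± 28.2 CPM at ZT14 and 163.5 ± 40.2 CPM at ZT18. NVE1907 went the other way, with 345.4 ± 63.9 CPM at ZT18 and 249.6 ± 58 CPM at ZT10. NVE6408, the member of lowest CPM, was at 80.7 ± 14.6 CPM at ZT22 and 60.2 ± 16.8 CPM at ZT14. On library totals, ZT22 was the highest time for 39 members and ZT18 the lowest for 36, but under TMM these counts were 18 and 21 and ZT14 was the highest time for 22 members.

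For any difference between time points, 4.95% of all genes tested were called and 4 members: NVE366, NVE8230, NVE17322 and NVE1907. DESeq2 called 10 members for time (9.07% of genes tested), edgeR on library totals 7 (5.72%), and edgeR at a minimum mean count of 10 called 9 (11.9%). For the photoperiod minus the scotoperiod in the colors, 3.99% of all genes were called and 7 members. NVE8230 (log2 fold change 0.24, standard error 0.06), NVE17322 (0.24, standard error 0.08) and NVE1135, initiation factor 5B (0.20, standard error 0.06), were higher in the photoperiod. NVE1907 was lower (-0.30, standard error 0.08), as were NVE12208, NVE25687 and NVE16503, with log2 fold changes of -0.24, -0.24 and -0.27. Without the 4 libraries of widest spread, 5 members were called for this comparison (3.71% of all genes), 1 of them higher in the photoperiod. With 1 replicate letter left out, 1 to 2 were called for it (1.22 to 2.32% of all genes) and 0 to 2 for the time points (1.67 to 2.46%). For the interaction of light and time, 0.0417% of genes were called and 0 members (edgeR). Before adjustment 1 member had a p under 0.05 in edgeR, beside 344 of the 9597 genes tested. DESeq2 also called 0 members (0.0938% of genes tested).

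Low total variance did not come with an unusually small share of it between groups. Of the members' variance, the 24 groups held a median of 32.5%, against 31.2% for the other genes and 25.0% of the degrees of freedom. Light held 7.14% of the members' and 6.79% of the other genes' variance (3.26% of the degrees of freedom), and time held 9.01% and 8.21% (5.43%). The interaction held 14.1% and 13.7% (16.3%). The largest share between groups was 54.95% for NVE9607, followed by NVE17337 with 50.1%, NVE12339 with 49.4% and NVE22534, annotated as zinc finger protein 318, with 48.4%. The remaining variance, a median of 67.5%, lay between animals of the same group. edgeR's estimate of that spread beyond counting, the biological coefficient of variation, had a median of 0.155 over the members and 0.253 over the other genes, again on the values that the rule used.

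The rule, though not the members themselves, can be measured in libraries that took no part in a choice. All libraries used here took part in the choice of the members. Each choice below gave its own 100 genes, and those made without a replicate letter shared 77 to 82 with the members. The rule was applied without all libraries of 1 replicate letter, and the SD of the 100 genes then chosen was taken in the libraries of that letter alone. The median SD of the chosen genes was 0.32 in replicate A, 0.34 in replicate B, 0.30 in replicate C and 0.38 in replicate D. For the other genes of the range it was 0.49 in A, 0.52 in B, 0.45 in C and 0.57 in D. Of the 100 chosen genes, 96 to 99 lay below the median of the other genes, and 96 to 99 lay below the median of other genes in the same interval of mean count. Of the chosen genes, 26 to 37 were among the 100 smallest SDs of the left-out letter. When the choice was made in the 71 libraries of the colors, the median SD in the 22 DD libraries was 0.32 for the chosen genes and 0.49 for the others, and 97 of 100 lay below the others' median. The overlap of that choice with the members was not counted. Libraries of a group are separate animals, so a left-out letter repeats the measurement and not the sequencing alone. The counts of genes describe the chosen sets and are not replicates.

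The 3 libraries below the minimum total were not used by the rule. DD ZT6 replicate D had 504 counts in the members, 1.96% of 25683 (95% Clopper-Pearson interval 1.80 to 2.14%), within the 1.32 to 2.41% of the libraries used. Of these counts 176 fell on NVE1477, an uncharacterized protein, where 4.60 would follow from its share in the libraries used. That is 6853 CPM, against 76.9 to 290.7 CPM in the 93 others. Without NVE1477 the members took 1.28%, a value for which no interval was computed. The lowest library used had 1.32%, with NVE1477 included. The chi-square per degree of freedom of the members without NVE1477, against the shares in the libraries used, was 2.46. In those libraries it was 1.33 to 6.99, but there the members had at least 1374 counts. This measure depends on the counts per gene, so the values cannot be compared directly. Red ZT6 replicate C had 17 member counts of 1455 (1.17%, 0.68 to 1.86%), and DD ZT22 replicate C had 2 of 289 (0.69%, 0.08 to 2.48%), too few to compare. A count of 0 in these libraries allows a share of up to 0.0117%, 0.206% and 1.04% for DD ZT6 replicate D, red ZT6 replicate C and replicate C of DD ZT22. Intervals cover counting error only.

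Pairwise stability ranks a gene by the SD of its log2 ratio to each other member, averaged to a value M, as geNorm does. M ran from 0.336 to 0.442, with a median of 0.406. Among the lowest were NVE5273 (0.336), NVE15970 (0.367), NVE21618 (0.367) and NVE19053 (0.369), and of these only NVE15970 was not among the 12 smallest SDs. The highest belonged to NVE6408 (0.442), NVE459 (0.442) and NVE23120 (0.441). Removing the least stable gene step by step left the pair NVE17337 and NVE12339, whose log2 ratio had an SD of 0.220. NVE12356, NVE20605 (neighbor of BRCA1 gene 1, an autophagy receptor in mammals), NVE5273 and NVE10278 were the next to join. The pair kept by this ranking is thus made of the 2 members with the widest light range, both highest in red light and lowest in DD.

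The members were loosely correlated. Over 93 libraries the median Pearson correlation between 2 members was 0.17 and ran from -0.34 to 0.75, and the first principal component held 20.1% of their variance, with 1% for each if all were unrelated and alike. The highest pairs were NVE17337 with NVE10278, the myosin (0.75), NVE17337 with NVE12339 (0.73) and NVE17337 with NVE12356 (0.68). All 100 members had a loading of the same sign on the first component. That component had a Pearson r of 0.72 with the log2 library total. The members' mean log2(CPM + 5) had a Pearson r of 0.72 with the log2 library total (Spearman's rank correlation 0.66, n = 93, r 0.64 without the 2 libraries farthest from the median total), and r was 0.69 in red light, 0.69 in green, 0.78 in blue and 0.70 in DD. For the other genes of the range r was 0.83, and for the log2 TMM factor 0.71. The members took 2.06% ± 0.17 of a library's counts (SD, n = 93), and this share had an r of 0.69 with the log2 total. These are descriptions of the same libraries, and the part of depth in the members' levels was not tested.

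Used as reference genes, the members gave a factor for each library from their mean log2(CPM + 5). The log2 factor had an SD of 0.13 over the 93 libraries, against 0.12 for the TMM factor. The ratio of both had an SD of 0.054 on the log2 scale, below the 0.117 by which library totals differ from TMM. It went beyond 0.2 in 1 library, blue ZT10 replicate D, where it was -0.22, and without the 4 libraries of widest spread its SD was 0.049. TMM was computed over genes that include the members. By light condition the mean ratio was 0.01 in red light, 0.004 in green, -0.01 in blue and -0.01 in DD, with SDs between libraries of 0.04, 0.06, 0.07 and 0.05, and a light effect on the ratio was not tested.

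The number of members mattered. The gene of smallest SD alone, NVE5273, gave a factor whose ratio to TMM had an SD of 0.184, larger than that of library totals. With 3 members the SD was 0.154, with 5 it was 0.120, with 10 it was 0.090, with 20 it was 0.077 and with 50 it was 0.053, close to the value with all 100. The members thus came nearer to TMM than library totals only from 10 genes upward among the sizes tried. The same value was computed for genes in conventional use. The members had been chosen for small spread in these libraries and the conventional genes had not, so the rule itself favors a smaller SD for the members, and no left-out libraries were used here. EF1-alpha (NVE12051, elongation factor 1-alpha) had an SD of 0.282 at 8085 CPM, where counting error is small, and ran from 2740 to 10380 CPM. The SD was 0.347 for actin (NVE1939), 0.494 for cyclophilin (NVE9330), 0.536 for alpha-tubulin (NVE14884) and 0.733 for beta-actin (NVE4068). Part of these values came from the libraries that stood apart: without them they were 0.214, 0.291, 0.437, 0.513 and 0.479. Of these genes the last 3 lay in the count range, at ranks 1172 for cyclophilin, 1365 for alpha-tubulin and 1697 for beta-actin. EF1-alpha and actin lay above the range and were not ranked. By the measure of the rule, the SD of log2(CPM + 5), EF1-alpha had 0.291 and actin 0.354. The members' median was 0.319, so EF1-alpha spread less than that median.

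**Figure D4:**
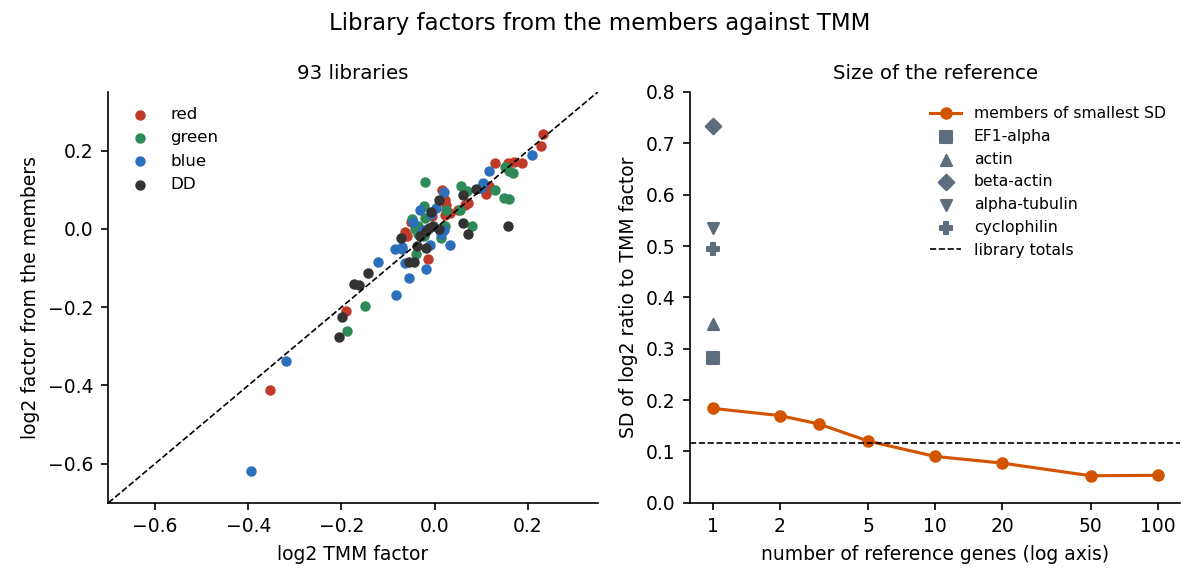
Left, log2 factor of each of 93 libraries from the 100 members (vertical) against the log2 TMM factor (horizontal), by light condition, with the line of equality. Right, SD over libraries of the log2 ratio to the TMM factor for 1 to 100 members of smallest SD (orange), for 5 conventional reference genes used alone (grey) and for library totals (dashed, 0.117), with the number of reference genes on a log axis. The members pass below the library totals at 10 genes.

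Scaling all libraries by the members in place of TMM moved the calls of the whole table little. Of 1194 genes called for light under TMM and 1220 under the members, 1157 were shared. For red minus DD these were 1232, 1240 and 1178 genes, for green minus DD 507, 522 and 492, and for blue minus DD 720, 742 and 709. For the time points they were 475, 465 and 444, and for the photoperiod minus the scotoperiod 383, 378 and 364. The median shift of a log2 fold change was -0.02 for red minus DD, -0.01 for green minus DD, -0.003 for blue minus DD and 0.02 for the photoperiod.

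The clock genes of the study are the kind of target for which a reference is needed, and they are not members. Cryptochromes sense blue light or repress the clock, Clock is a core activator of the clock, CiPC an inhibitor of it in mammals, and PAR-bZIP proteins are transcription factors that regulate Clock in flies, while helt is a transcription factor of the basic helix-loop-helix kind. Cry1a (NVE1138) had 0 to 76.9 CPM in blue light (median 37.6) and 0 to 22.96 CPM in DD (median 7.62). Its blue minus DD log2 fold change was 1.96 scaled by the members (standard error 0.24, adjusted p = 8.74e-09, edgeR) and 1.96 scaled by TMM (standard error 0.24, adjusted p = 7.95e-09, edgeR). PAR-bZIPa (NVE14677) gave 2.06 with both references, and helt (NVE8679) 1.90 with both. PAR-bZIPd (NVE8085) averaged 164.6 CPM in blue light and 1.14 CPM in DD, where 10 counts were found in 22 libraries and 2 time points had none, so that its fitted change depends on the prior count. For Cry1b, Timeout, CiPC and PAR-bZIPc the blue minus DD change did not pass the threshold with either reference, with adjusted p of 0.560, 0.873, 0.186 and 0.190 scaled by the members (edgeR). Over these 9 genes and 4 comparisons, the change of reference moved no call across the threshold, and its largest move of a log2 fold change was -0.02, for Timeout in red minus DD.

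**Figure D5:**
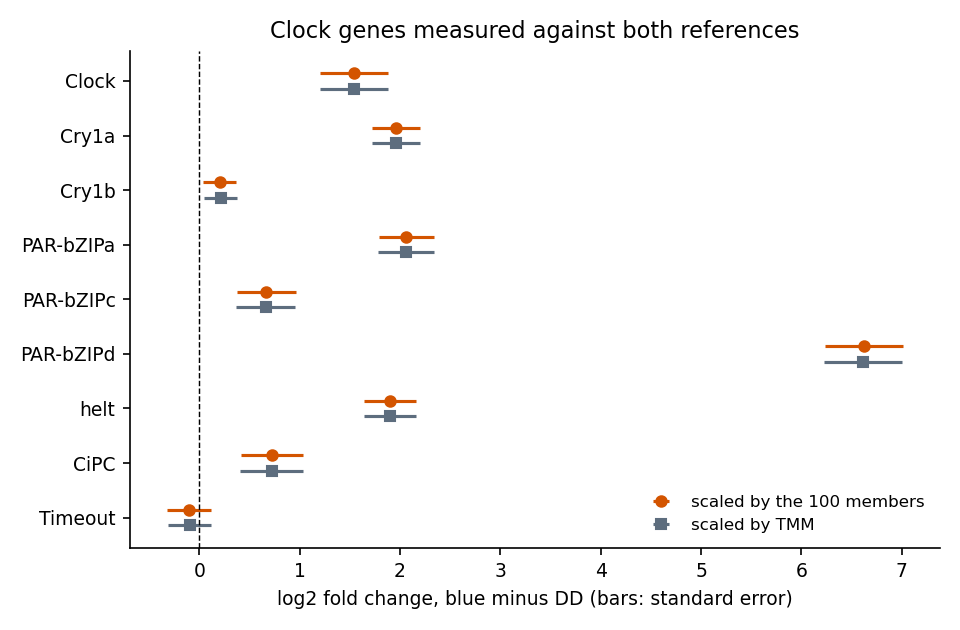
Log2 fold change of blue light minus DD for 9 clock genes of the study, scaled by the 100 members (orange circles) and by TMM (grey squares), with standard errors from edgeR's quasi-likelihood test over 93 libraries. Both references differ by at most 0.01 (log2), and the PAR-bZIPd value rests on 10 counts in DD.

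The spread of these targets between animals of a group differed little between most references. Several targets had few counts: in the 22 DD libraries Clock had 38, with 6 libraries at 0, and Cry1a had 68. The counting error of a target stays with any reference. Likeness between references is therefore no evidence that they serve equally well. The within-group SD of log2(CPM + 5) less the reference had a median of 0.62 over the 9 genes with the 100 members, 0.62 with TMM, 0.63 with 10 members and 0.62 with library totals. With 1 member, NVE5273, it was 0.62. It was 0.69 with EF1-alpha and 0.89 with beta-actin. The reference also moved the level: the red minus DD difference of Cry1a on this scale was 0.21 with the 100 members, 0.12 with 3 members, 0.05 with 1 member, 0.11 with EF1-alpha and -0.28 with beta-actin, which had a library at 0 CPM. That of helt was 0.46 with the 100 members, 0.37 with 3, 0.30 with 1, 0.36 with EF1-alpha and -0.03 with beta-actin.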

How the data were processed

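Tag-based libraries of 96 whole animals were sequenced. The authors removed PCR duplicates, trimmed and filtered reads by quality, aligned them with Bowtie2 (named in the submitters' processing notes, version not given in the sources used here) against the Vienna transcriptome, and kept reads of a single gene. The deposited values are the resulting counts, whole numbers without normalization, for 23927 gene models, and every column matched a sample label. The labels give time points, and the ZT hours come from the study's methods.

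The members and gene lists were chosen with earlier results of these data known. CPM were taken from library totals, with a pseudocount of 5 on the log2 scale. A named gene was among the 12 smallest SDs, next to the threshold, at the extremes of level, light range, time range, variance share or M, annotated by the study, or a clock gene. NVE1477, the conventional genes, and members named only because they were called were chosen after their values were seen. Counts were tested with edgeR 4.0.16 (R 4.3.3) after TMM normalization, in 1 fit of 24 groups over 93 libraries for the 9597 genes whose mean count reached 3, with its quasi-likelihood F test (two-sided), p-values adjusted by Benjamini-Hochberg and called at 10% FDR. Standard errors were derived from the F statistic. The rule and the fits were tested on simulated data. The alternatives were other scalings, filters, DESeq2 1.42.0, a replicate block, thinning to 100000 counts, other ranking measures and leaving out libraries. DESeq2 tested light and time with likelihood ratio tests in a model without their interaction. Those calls therefore differ from edgeR's in model as well as in software. Tables were made with Python 3.11.15, numpy 2.4.6 and matplotlib 3.10.9. The animals are separate samples, and p-values measure the spread between them. No sequences are shown, since the gene identifiers were not tied to a reference here. A few genes that the naming rule selects are not reported here.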

Additional observations from a re-analysis of the deposited data

Results flagged for a closer look

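In 21 groups of 4 libraries, 3 measures of the members were checked for a library far from the other 3 of its group, and 4 of 63 checks found one, where chance gives about 1 in 20. The spread of the members within the library was 0.33 in green ZT6 replicate D, against 0.23 to 0.24 in the other 3, and 0.52 in red ZT2 replicate B, against 0.18 to 0.23. The log2 factor from the members minus the log2 TMM factor was 0.033 in blue ZT14 replicate A, against -0.025 to -0.019, and 0.085 in red ZT22 replicate A, against -0.022 to -0.0046. The interaction of light and time was called for 4 genes of the whole table, none of them a member. In libraries the rule did not use, the members had 504 counts in DD ZT6 replicate D and 17 in red ZT6 replicate C, above the limit of 3 that a count of 0 allows. NVE1477 had 176 counts in DD ZT6 replicate D, a larger share of the library than in any library used, and the cause was not tested.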

How the results depend on the processing

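Of the 100 members, 96 were chosen again with a pseudocount of 1, 90 with 10, 83 with TMM-scaled totals, 80 by the SD within groups, 77 by the residual SD on depth and 77 to 82 with a replicate left out. Fewer were shared under other changes: 51 when Poisson variance was subtracted (median mean count 33.5 of the genes chosen), 57 after thinning (102.1), 51 by the median absolute deviation, 59 with a count range up to 1000 and 66 without the 4 libraries of widest spread, the last chosen after seeing the data. The 7 genes NVE5273, NVE21618, NVE9334, NVE13984, NVE24814, NVE19053 and NVE13168 were chosen in all 16 alternatives. The SD of the log2 factor ratio was 0.045 to 0.058 with a replicate left out and 0.049 to 0.077 under the other alternatives. Without a filter on counts, 23925 genes were tested. Then edgeR called 757 genes for light (3.16%), 778 for red minus DD (3.25%) and 241 for green minus DD (1.01%). It called 471 for blue minus DD (1.97%) and 201 for the photoperiod (0.84%). The main fit called 1194, 1232, 507, 720 and 383 (12.4, 12.8, 5.28, 7.5 and 3.99%). The members called were 6, 11, 2, 2 and 1, against 24, 26, 13, 9 and 7. DESeq2 called 870 genes for time, in a model without the interaction, and 9 for the interaction, against 475 and 4 in edgeR. In edgeR the interaction called 2 genes at a minimum mean count of 10. With libraries of at least 10000 counts it called 12, 1 of them a member. With a replicate left out, the calls ranged from 562 to 919 for light, 158 to 235 for time, 0 to 4 for the interaction (270 to 465 at an unadjusted p under 0.05), 481 to 853 for red, 120 to 779 for green and 291 to 509 for blue minus DD, and 1.2e+02 to 222 for the photoperiod, and the members called ranged from 6 to 14 for light and 0 to 2 for time. On library totals 945 of 1279 genes called for red minus DD were higher, against 639 of 1232 under TMM, for green minus DD 418 of 558 against 287 of 507, and under RLE 389 of 732 for blue minus DD against 298 of 720. The replicate letters did not pair the libraries (mean correlation of deviations 0.01 within a letter and -0.003 between letters). With a replicate block 1191 genes (12.4%) and 22 members were called for light, and 452 genes (4.71%) and 4 members for time. The block moved no other count by more than 1.5 times. At this depth, counting alone gave the members an SD of 0.11 to 0.29 between single libraries (median 0.19), which limits what a single library can show.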
